A study of Mus musculus with 6 samples.

Results

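The histone genes on the array were 24 of the 17097 genes tested. A gene was taken as a histone gene when its probe set carried exactly 1 gene symbol in the platform annotation and that symbol began like a histone symbol (H1, H2A, H2B or H3.3 forms), with the major histocompatibility complex genes, named H2-, left out. The pattern matched 35 probe sets, and each gene was read from its probe set of highest mean log2 intensity. The older symbols listed for these genes in the gene table put 9 of them in the Hist gene clusters, and these are called replication-dependent. The name rests on the symbol alone, and expression over the cell cycle was not tested. The class includes H1f6, known from testis, and H2bc21, known from olfactory neurons. The 9 were 3 linker H1 genes (H1f2, H1f4 and H1f6), 1 H2A gene (H2aw) and 5 H2B genes (H2bc4, H2bc18, H2bc21, H2bc22 and H2bu2). The other 15 are called replacement histones, with 3 linker genes, 8 H2A variants, 2 H2B variants and the 2 genes of H3.3. The annotation uses newer symbols, so the pattern did not take up clustered H3 and H4 genes, whose values are given apart.

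The arrays measured messenger RNA of CD4+CD25- T cells from female C57BL/6 mice, taken from spleen per 1 label and from spleen and lymph nodes per another. All wells were coated with anti-CD3 at 2 µg/ml, and the cells stayed in them for 4 days with 0.36 ng/ml of TGF-beta and 10 ng/ml of IL-2. The BTNL2 wells carried anti-CD3, B7-2 as an Fc fusion at 3 µg/ml and BTNL2 as an Fc fusion at 11 µg/ml. The B7-2 wells carried anti-CD3, the same B7-2 coating and control IgG, and the anti-CD3 wells carried anti-CD3 with control IgG. Each group had 2 arrays. The labels describe duplicate cultures and name no separate animals, so the p-values reflect the spread within duplicates, which may be technical. B7-2 is a ligand of the costimulatory receptor CD28, and BTNL2 belongs to the butyrophilin-like proteins.

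Values are RMA intensities on a linear scale, and changes are log2 differences between group means of log2 intensity with their standard errors (SE). A gene was called when its adjusted p was under 0.05 in limma's test across all 17097 genes with Benjamini-Hochberg adjustment, and every adjusted p below comes from that test unless stated otherwise. Array medians were 18.5 to 18.8, and medians of the nonspecific control probe sets were 3.68 to 4.49. Of the 24 histone genes, 21 lay above an intensity of 12.4, the 40th percentile of all probe sets, and no filter was applied. Of 10 CD4 T cell markers, 9 were measured, none of them dim, and their summed intensity was 20911 and 20962 in BTNL2 wells, 20907 and 21207 in B7-2 wells and 25887 and 25410 in anti-CD3 wells. The 7 CD8 T cell and NK cell markers summed to 2947 and 2524 in BTNL2 wells, 284 and 264 in B7-2 wells and 619 and 661 in anti-CD3 wells, with Ncr1 dim and none at 0. Most of the sum in BTNL2 wells came from Eomes (1337 and 991) and Cd8a (987 and 924). Ncr1 and Klrb1c were called in no comparison. The 7 measured B cell markers summed to 681 and 875 in BTNL2 wells, 503 and 456 in B7-2 wells and 797 and 759 in anti-CD3 wells, with Pax5 and Cr2 dim. This sum hides opposite changes. In BTNL2 against anti-CD3 wells 1 of them was called higher (Ms4a1) and 3 lower (Cd79b, Cr2 and Ebf1). The 8 myeloid markers summed to between 146 and 241, with Lyz2, Itgam and Adgre1 dim, and the 2 erythroid markers to between 17.6 and 22.4. The middle probe set for 18S ribosomal RNA read 1665 and 1798 in BTNL2 wells, 2019 and 1821 in B7-2 wells and 1308 and 683 in anti-CD3 wells.

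Nucleosomes wrap DNA around an octamer of core histones H2A, H2B, H3 and H4, and linker histone H1 binds where DNA enters and leaves. Replication-dependent histone genes lie in clusters, have no introns and are expressed mainly in S phase, and their messages end in a stem-loop bound by SLBP in place of a poly(A) tail. Some of them can also give polyadenylated messages in differentiated cells. Replacement histones are made throughout the cell cycle as polyadenylated messages and are placed in chromatin outside replication. Activated T cells divide rapidly, and dividing cells need new histones for the copied DNA. Per the labels, the RNA was amplified with a NuGen Ovation kit before labelling. How well that step captures messages without a poly(A) tail was not tested.

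Promoters are shown for 5 genes on which the results turn, the 2 linker genes that changed in opposite directions, the H2B gene that changed most, and the H2A.Z pair. RefSeq's table for GRCm38.p6 held promoters for 21 of the 24 genes, and H2bc4, H2bc21 and H2ax were not among them. Each sequence is the 250 bases before the transcription start, 5′ to 3′ on the gene's strand. Capitals mark letters that matched a motif on either strand. The motifs were the core promoter element TATAAA, the NF-Y binding element known as the CCAAT box, the element AAACACA known as the H1 box, and the GC box, spelled GGGCGG. H2bc22 lies at chr13:21787238-21787487 on the plus strand, H1f4 at chr13:23622559-23622808 on the minus strand and H1f2 at chr13:23738557-23738806 on the plus strand. H2az1 lies at chr3:137864237-137864486 on the plus strand and H2az2 at chr11:6444444-6444693 on the minus strand.
H2bc22: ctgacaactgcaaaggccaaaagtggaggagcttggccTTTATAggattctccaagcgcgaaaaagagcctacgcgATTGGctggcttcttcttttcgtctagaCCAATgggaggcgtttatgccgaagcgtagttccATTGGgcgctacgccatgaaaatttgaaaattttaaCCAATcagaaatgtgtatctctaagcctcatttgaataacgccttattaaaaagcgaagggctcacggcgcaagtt
H1f4: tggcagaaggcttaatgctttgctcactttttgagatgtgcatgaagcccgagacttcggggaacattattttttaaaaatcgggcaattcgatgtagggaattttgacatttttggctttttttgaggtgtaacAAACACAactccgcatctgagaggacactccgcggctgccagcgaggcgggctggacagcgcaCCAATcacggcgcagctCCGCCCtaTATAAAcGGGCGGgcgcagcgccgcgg
H1f2: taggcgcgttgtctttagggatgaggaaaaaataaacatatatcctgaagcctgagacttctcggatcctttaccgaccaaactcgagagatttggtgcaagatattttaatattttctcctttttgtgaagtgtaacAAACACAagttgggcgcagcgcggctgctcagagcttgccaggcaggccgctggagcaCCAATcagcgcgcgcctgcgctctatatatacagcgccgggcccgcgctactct
H2az1: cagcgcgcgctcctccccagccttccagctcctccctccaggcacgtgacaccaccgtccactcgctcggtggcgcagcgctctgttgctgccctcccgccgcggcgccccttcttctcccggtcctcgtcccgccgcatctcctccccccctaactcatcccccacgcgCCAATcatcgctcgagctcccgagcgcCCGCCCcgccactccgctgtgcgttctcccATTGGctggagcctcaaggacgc
H2az2: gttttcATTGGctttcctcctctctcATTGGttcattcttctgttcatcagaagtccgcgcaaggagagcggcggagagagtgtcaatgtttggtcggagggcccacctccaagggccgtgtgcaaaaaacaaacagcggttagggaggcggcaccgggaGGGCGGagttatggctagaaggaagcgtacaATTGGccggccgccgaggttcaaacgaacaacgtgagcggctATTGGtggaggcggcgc

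The H1 box stood in the windows of all 3 replication-dependent linker genes (H1f2, H1f4 and H1f6) and of 1 other histone gene, H3f3a, among the 21 windows. Of 32851 promoter windows of the same length, 6.25% held it, and 4.74% of those of the genes tested. It began 115 bases before the start in H1f4 and 112 bases before it in H1f2, and a CCAAT box followed 52 and 54 bases before the start. A CCAAT box was in all 7 replication-dependent windows and in 9 of 14 replacement windows, against 33.8% of all promoters and 34.9% of those of the genes tested. H2bc22 held 4 of them and H2az2 also 4, while H2az1 held 2. The TATA letters were in 3 of 7 replication-dependent and 2 of 14 replacement windows (12.4% of all promoters and 9.01% of those of the genes tested). In H1f4 they began 27 bases before the start, but in H2bc22 they stood on the other strand, 212 bases before it. Only the exact letters were counted, so similar letters near the start were missed. The GC box was in 2 of 7 and 5 of 14 windows (32.7% of all promoters and 48.3% of those of the genes tested). The octamer ATTTGCAT, known from H2B promoters, was in the windows of H2bc18, H2aw and H3f3b (1.60% of all promoters and 1.33% of those of the genes tested). The E2F letters TTTCCCGC or TTTGGCGC were in none of the 21 windows, and 1.30% of all promoters and 1.89% of those of the genes tested held them. A match describes letters in the window and shows no binding, and matches of different motifs did not overlap in the 5 windows shown.

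In each of the 3 comparisons the 24 histone genes of the symbol rule were called in both directions, as all genes were. The rule leaves out clustered H3 and H4 genes. With these added after seeing the data, 8 of 18 replication-dependent genes were called higher and 3 lower in BTNL2 against anti-CD3 wells. In B7-2 against anti-CD3 wells 9 of the 18 were higher and 1 lower. The counts that follow are for the 24 genes of the rule. In BTNL2 wells against anti-CD3 wells, 4 of the 24 genes were called higher and 4 lower, where 14.2% and 16.2% of all genes were. These were 2 higher and 3 lower of the 9 replication-dependent genes, with a median log2 change of -0.08, and 2 higher and 1 lower of the 15 replacement genes, with a median of -0.03. Most of the 15 replacement genes, listed below, gave low signals and were called in no comparison. The counts and medians of this class thus largely describe weakly measured genes. Over all genes the median was -0.0046. With either BTNL2 array or either anti-CD3 array left out, 1 replication-dependent gene was called higher, and 2 were called lower without BTNL2 array 1 or either anti-CD3 array. Their median turned to 0.0151 without BTNL2 array 2, and it was -0.17 without BTNL2 array 1 and -0.20 without cross-matching probe sets. Without either BTNL2 array or anti-CD3 array 1, 1 replacement gene was called higher, and their median ranged over -0.0653 (without BTNL2 array 2) to 0.014 (without BTNL2 array 1), so neither median has a settled sign. In B7-2 wells against anti-CD3 wells, 3 were called higher and 2 lower, where 11.2% and 13.3% of all genes were. These were 2 higher and 1 lower of the replication-dependent genes (median -0.14) and 1 higher and 1 lower of the replacement genes (median -0.05). Of the replication-dependent genes, 1 was called higher without B7-2 array 2 or either anti-CD3 array, none was lower without anti-CD3 array 2, and 2 were lower without B7-2 array 1 or either BTNL2 array. Their median was -0.0325 without B7-2 array 2. When any 1 of the 4 arrays compared was left out, no replacement gene was called higher, and their median was -0.0016 without anti-CD3 array 2 and 0.0311 with the mean of all probe sets. In BTNL2 wells against B7-2 wells, only H2bc22 was called higher and only H2bc21 lower, where 9.52% and 10.8% of all genes were, with medians of -0.06 for replication-dependent and -0.03 for replacement genes. The replication-dependent median was -0.16 without B7-2 array 1 and -0.13 without B7-2 array 2, and the replacement median turned to 0.0573 without B7-2 array 1. H2bc22 lost its call there without BTNL2 array 1 or B7-2 array 1, and H2bc21 when any array except BTNL2 array 1 was left out. Of the 7 CD8 T cell and NK cell markers 5 were higher in the same comparison, and their part in the histone values was not tested. None of the 15 replacement genes was called between BTNL2 and B7-2 wells by limma's test, where 20.4% of all genes were. An unadjusted p under 0.05 was reached by 2 of them and by 5534 of all 17097 genes. The comparisons with anti-CD3 wells share the same 2 anti-CD3 arrays. Of the 24 genes, 16 were called in none of the 3 comparisons. The same count over all genes was not made, so this number cannot show whether histone genes changed less often than others. In these bulk samples, fewer cells of a type and less RNA per cell cannot be told apart.

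**Figure D1:**
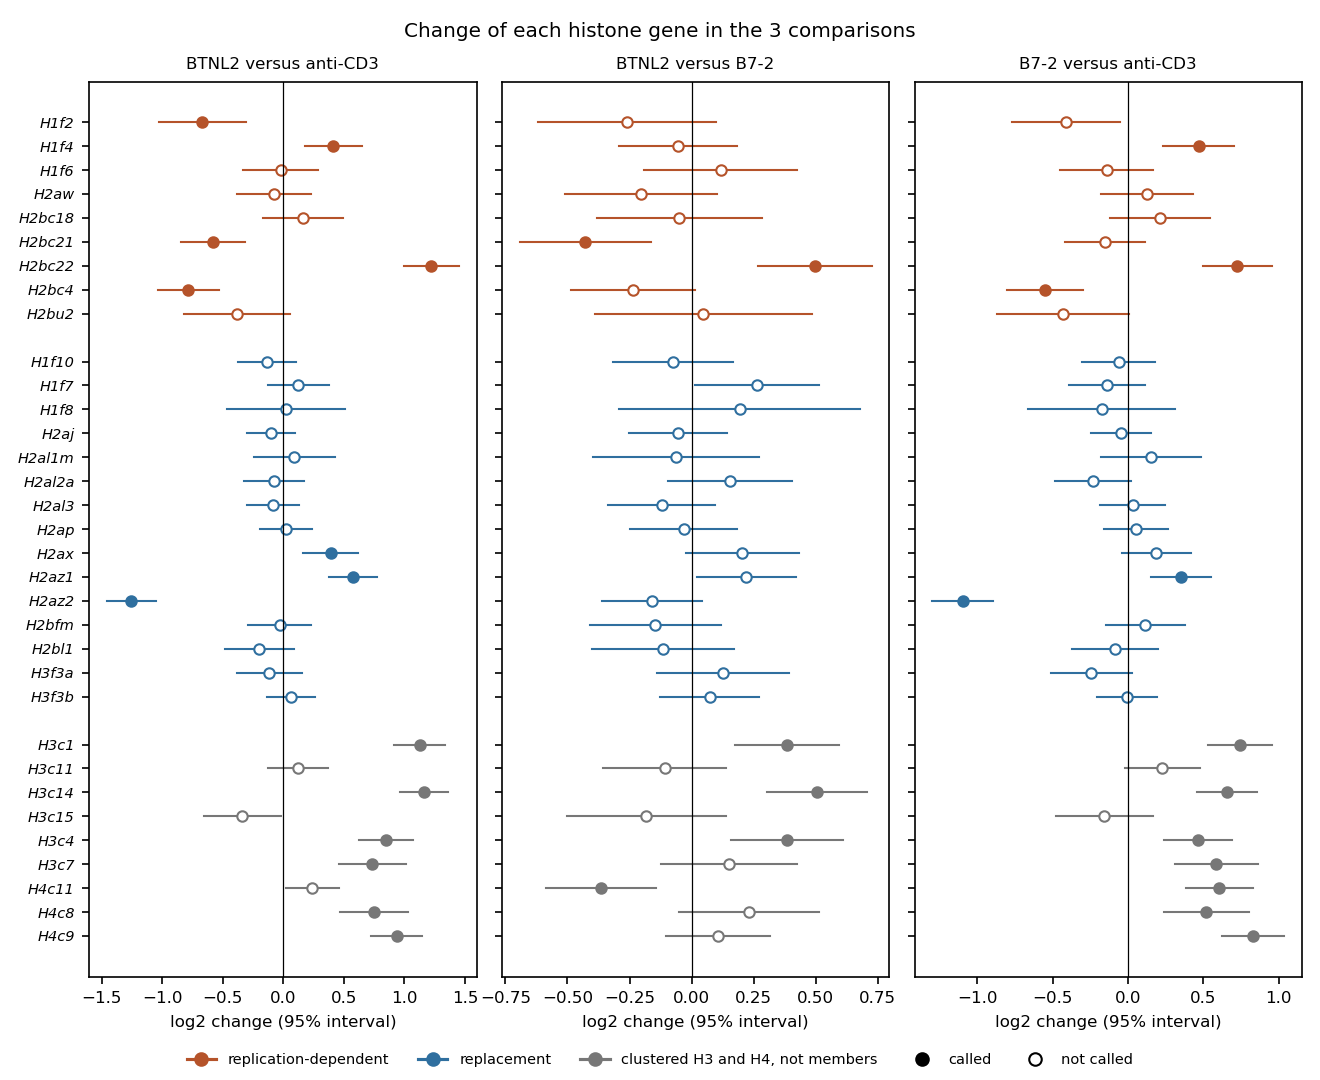
Log2 change (x axis, with 95% intervals from limma) of each histone gene in the 3 comparisons, replication-dependent genes in orange, replacement genes in blue and the clustered H3 and H4 genes that are not members in grey. Filled points passed an adjusted p of 0.05. Called points of the 9 replication-dependent genes lie on both sides of 0 in each panel, and among replacement genes H2az2 lies farthest to the left in the 2 panels against anti-CD3.

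H2bc22, an H2B gene of the Hist1 cluster, had the largest rise among the 24 genes in each of the 3 comparisons. It read 1579 and 1551 in BTNL2 wells, 1049 and 1172 in B7-2 wells and 647 and 694 in anti-CD3 wells. Both BTNL2 arrays lay above both B7-2 arrays, which lay above both anti-CD3 arrays. It was 2.34-fold higher in BTNL2 wells than in anti-CD3 wells (log2 change 1.22 ± 0.10 SE, adjusted p = 0.000154, n = 2 arrays a group, limma). It was 1.65-fold higher in B7-2 wells than in anti-CD3 wells (0.73 ± 0.10, adjusted p = 0.00223) and 1.41-fold higher in BTNL2 wells than in B7-2 wells (0.50 ± 0.10, adjusted p = 0.0115). The call in BTNL2 wells against B7-2 wells was lost without BTNL2 array 1 (adjusted p = 0.0595) or without B7-2 array 1 (0.0719). Clustered H2B genes are nearly identical in coding sequence, so a probe set of 1 can also read others. Another H2bc22 probe set is of the kind marked as cross-matching. It gave 143 and 143 in BTNL2 wells, 105 and 116 in B7-2 wells and 82.0 and 77.2 in anti-CD3 wells. In a fit of all 28898 probe sets with 1 symbol it was called in all 3 comparisons (adjusted p = 0.00077 for BTNL2 against anti-CD3, 0.0141 for B7-2 against anti-CD3 and 0.0375 for BTNL2 against B7-2).

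2 other H2B genes fell. H2bc4, also of the Hist1 cluster, read 144 and 165 in BTNL2 wells, 182 and 181 in B7-2 wells and 251 and 280.2 in anti-CD3 wells. It was 1.72-fold lower in BTNL2 wells than in anti-CD3 wells (log2 change -0.79 ± 0.11 SE, adjusted p = 0.0015) and 1.46-fold lower in B7-2 wells (-0.55 ± 0.11, adjusted p = 0.00968), and both groups lay below both anti-CD3 arrays. The call for B7-2 wells was lost without anti-CD3 array 2 (adjusted p = 0.0637). Between BTNL2 and B7-2 wells the change was -0.24 (95% interval -0.48 to 0.01, adjusted p = 0.179). H2bc4 and H2bc22, both H2B genes of the Hist1 cluster, thus ordered the groups in opposite ways, with no overlap between groups in either.

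H2bc21 of the Hist2 cluster encodes H2BE, a variant known in mouse from olfactory neurons. Its signal was low, with 22.3 and 18.5 in BTNL2 wells, 27.9 and 26.8 in B7-2 wells and 29.7 and 31.1 in anti-CD3 wells. It was 1.498-fold lower in BTNL2 wells than in anti-CD3 wells (log2 change -0.58 ± 0.11 SE, adjusted p = 0.00704). Against B7-2 wells the fall was 1.35-fold (-0.43 ± 0.11, adjusted p = 0.0361), and this call was lost in 7 alternatives, with adjusted p of 0.0575 with an intensity trend in the prior, 0.062 with only the 4 arrays compared, and 0.062 to 0.148 when any array except BTNL2 array 1 was left out. With a pseudocount of 16 the changes in BTNL2 wells were -0.35 against anti-CD3 wells and -0.25 against B7-2 wells. The BTNL2 arrays were the lower ones in both comparisons, without overlap. The other 2 H2B genes were not called. H2bu2 read 22.1 and 22.6 in BTNL2 wells, 25.95 and 17.98 in B7-2 wells and 26.1 and 32.6 in anti-CD3 wells, and H2bc18 stayed between 10.9 and 15.4 on all arrays, near the dim end.

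Among the linker histones, 2 genes of the Hist1 cluster were called in opposite directions in BTNL2 wells. H1f4, which encodes linker histone H1.4, read 102 and 107 in BTNL2 wells, 101 and 116 in B7-2 wells and 77.3 and 79.5 in anti-CD3 wells. It was 1.33-fold higher in BTNL2 wells than in anti-CD3 wells (log2 change 0.41 ± 0.10 SE, adjusted p = 0.0193) and 1.38-fold higher in B7-2 wells (0.47 ± 0.10, adjusted p = 0.0149). The arrays of BTNL2 and B7-2 wells overlapped (-0.06, 95% interval -0.29 to 0.18). The first of these calls was lost when any of its 4 arrays was left out (adjusted p = 0.0531 to 0.0943) and the other without B7-2 array 2 or either anti-CD3 array (0.0615 to 0.0838). Both were lost when all probe sets of the gene were averaged, with changes of 0.0987 in BTNL2 wells (adjusted p = 0.439) and 0.14 in B7-2 wells (0.273). The second H1f4 probe set lay at 7.50 to 8.95 on all arrays, below the 40th percentile.

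H1f2, which encodes H1.2, moved the other way. It read 160.4 and 212 in BTNL2 wells, 202 and 241 in B7-2 wells and 287 and 299.6 in anti-CD3 wells, so that the BTNL2 and B7-2 arrays overlapped and all 4 lay below both anti-CD3 arrays. The fall in BTNL2 wells against anti-CD3 wells was 1.59-fold (log2 change -0.67 ± 0.15 SE, adjusted p = 0.0142), and it was lost without BTNL2 array 1 (adjusted p = 0.061), anti-CD3 array 1 (0.0565) or anti-CD3 array 2 (0.0747). In B7-2 wells the change was -0.41 ± 0.15 (adjusted p = 0.0984), which passed the threshold in 5 alternatives (0.0259 to 0.0484). The second H1f2 probe set read 71.2 and 104 in BTNL2 wells, 93.9 and 108 in B7-2 wells and 139 and 119 in anti-CD3 wells (log2 change of BTNL2 against anti-CD3 -0.58, adjusted p = 0.0578). H1f6, the testis linker histone H1t, lay between 10.4 and 13.3 on all arrays and was not called. H2aw, the H2A gene of the Hist3 cluster, lay between 82.0 and 112 with overlapping groups and was not called.

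**Figure D2:**
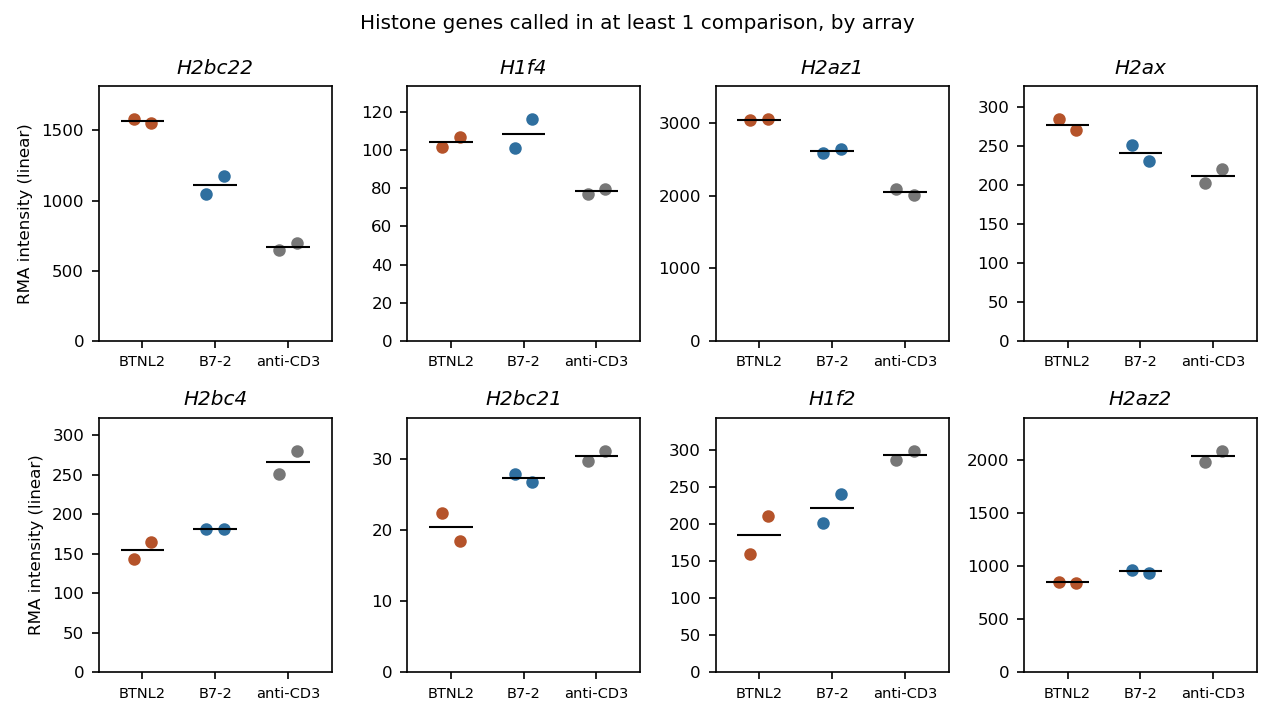
RMA intensity (linear y axis starting at 0) on each array for the 8 histone genes called in at least 1 comparison, with points for arrays, lines for group means and BTNL2, B7-2 and anti-CD3 wells from left to right. H2bc22, H1f4, H2az1 and H2ax are higher in BTNL2 wells than in anti-CD3 wells, and H2bc4, H2bc21, H1f2 and H2az2 are lower.

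The replacement histones that changed were all variants of H2A. H2az1 and H2az2 encode H2A.Z.1 and H2A.Z.2, close relatives that mark promoters and enhancers and are exchanged for H2A by dedicated remodelling complexes. H2az2 had the largest fall among the 24 genes in both comparisons with anti-CD3 wells. It read 856 and 847 in BTNL2 wells, 968 and 936 in B7-2 wells and 1986 and 2089 in anti-CD3 wells. All 4 arrays of wells with B7-2 on the plate thus lay well below both anti-CD3 arrays. H2az2 was 2.39-fold lower in BTNL2 wells than in anti-CD3 wells (log2 change -1.26 ± 0.09 SE, adjusted p = 8.48e-05) and 2.14-fold lower in B7-2 wells (-1.10 ± 0.09, adjusted p = 0.000436). BTNL2 wells against B7-2 wells gave -0.16 (95% interval -0.36 to 0.04, adjusted p = 0.253). The second H2az2 probe set was much dimmer, at 24.3 to 38.8, and its changes of -0.34 in BTNL2 wells and -0.38 in B7-2 wells were not called (adjusted p = 0.194 and 0.171). The mean of both probe sets fell by 0.80 in BTNL2 wells (adjusted p = 0.00136) and by 0.74 in B7-2 wells (0.00299).

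H2az1 moved opposite to H2az2. It read 3045 and 3052 in BTNL2 wells, 2592 and 2644 in B7-2 wells and 2096 and 2003 in anti-CD3 wells, with no overlap between groups. It was 1.49-fold higher in BTNL2 wells than in anti-CD3 wells (log2 change 0.57 ± 0.08 SE, adjusted p = 0.00215) and 1.28-fold higher in B7-2 wells (0.35 ± 0.08, adjusted p = 0.0221). The call for B7-2 wells was lost when any of its 4 arrays was left out (adjusted p = 0.0736 to 0.113). Between BTNL2 and B7-2 wells H2az1 changed by 0.22 (adjusted p = 0.12), and it passed with an intensity trend in the prior (0.00319) and with a pseudocount of 16 (0.0216).

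H2ax encodes H2A.X, whose phosphorylated form marks DNA breaks, and its gene is known to give both stem-loop and polyadenylated messages. It read 284 and 269.7 in BTNL2 wells, 251 and 230.4 in B7-2 wells and 202 and 220.4 in anti-CD3 wells, and the 3 groups did not overlap. It was 1.31-fold higher in BTNL2 wells than in anti-CD3 wells (log2 change 0.39 ± 0.10 SE, adjusted p = 0.0202), a call lost without BTNL2 array 1 (adjusted p = 0.0908), BTNL2 array 2 (0.0504) or anti-CD3 array 1 (0.115). B7-2 wells against anti-CD3 wells gave 0.19 (adjusted p = 0.222), and BTNL2 wells against B7-2 wells gave 0.20 (0.2).

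H3f3a and H3f3b, the 2 genes of the replacement histone H3.3, were not called in any comparison. H3f3b read 4493 and 4704 in BTNL2 wells, 4388 and 4356 in B7-2 wells and 4377 and 4409.95 in anti-CD3 wells, and its change in BTNL2 wells against anti-CD3 wells was 0.07 (95% interval -0.13 to 0.26, adjusted p = 0.631). Its second probe set differed, with 1750.2 and 1780.1 in BTNL2 wells, 1397 and 1451 in B7-2 wells and 1331 and 1148 in anti-CD3 wells, and was called 1.43-fold higher in BTNL2 wells than in anti-CD3 wells (log2 change 0.51, adjusted p = 0.00936 over all probe sets). The probe sets of H3f3b therefore disagree, and no direction is given for the gene. H3f3a read 1412 and 1687 in BTNL2 wells, 1348 and 1483 in B7-2 wells and 1680.2 and 1666 in anti-CD3 wells. Its change was -0.12 in BTNL2 wells (95% interval -0.38 to 0.15) and -0.24 in B7-2 wells (-0.51 to 0.02, adjusted p = 0.179) against anti-CD3 wells. The change in B7-2 wells passed only with an intensity trend in the prior (adjusted p = 0.0269). The second H3f3a probe set was not called in any comparison.

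H2aj, which encodes the variant H2A.J, read 3062 and 2967 in BTNL2 wells, 3083 and 3179 in B7-2 wells and 3229 and 3234 in anti-CD3 wells and was not called (-0.10 for BTNL2 against anti-CD3, 95% interval -0.30 to 0.10). Its second probe set went the other way, with 532 and 566 in BTNL2 wells, 494 and 616 in B7-2 wells and 388 and 428 in anti-CD3 wells, and was called higher in BTNL2 wells (log2 change 0.43, adjusted p = 0.0443) and B7-2 wells (0.44, adjusted p = 0.0497) than in anti-CD3 wells. The third probe set, at 23.4 to 33.6, was not called. H2aj thus has no settled direction either.

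**Figure D3:**
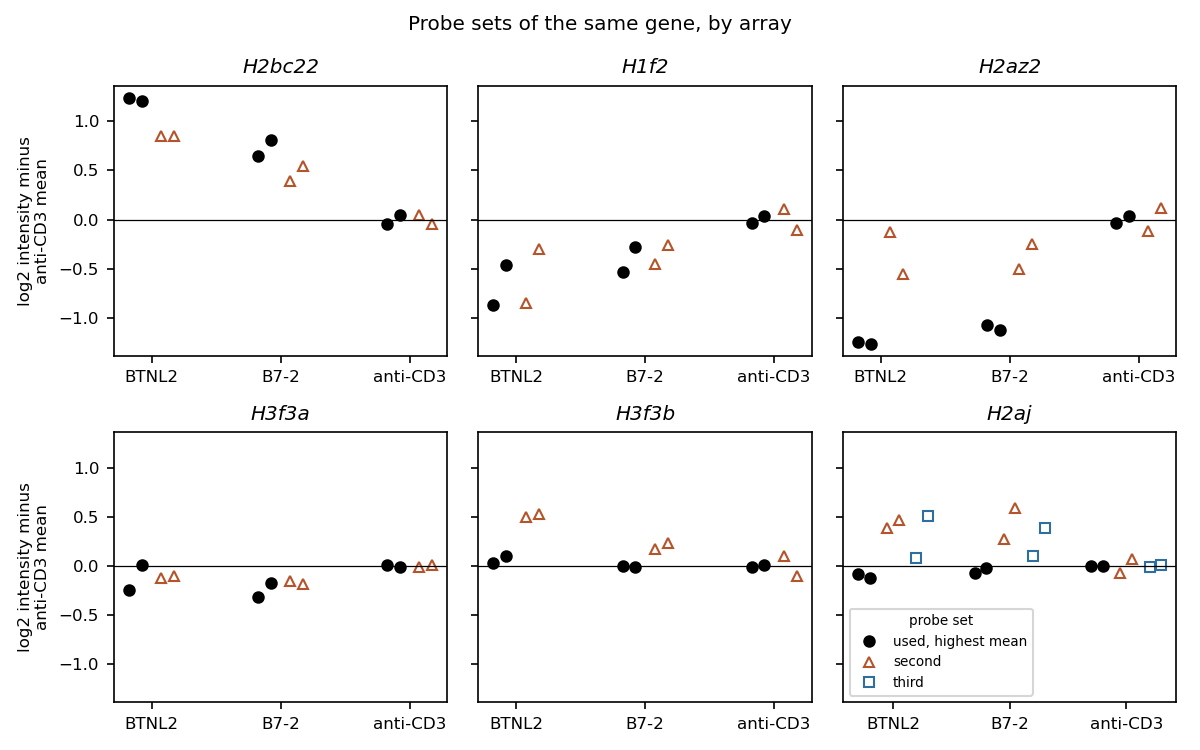
Log2 intensity minus the probe set's own mean in anti-CD3 wells (y axis) on each array, for 6 histone genes with more than 1 probe set, with BTNL2, B7-2 and anti-CD3 wells from left to right. Black circles mark the probe set used, triangles the second and squares the third. Both probe sets of H2bc22 lie above 0 in BTNL2 and B7-2 wells, while those of H3f3b and H2aj part from each other.

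The remaining 9 replacement genes gave low signals and none was called. H1f8, the oocyte linker histone, read 43.2 and 66.2 in BTNL2 wells, 52.8 and 41.5 in B7-2 wells and 52.3 and 53.3 in anti-CD3 wells. These groups overlapped throughout. H1f10, the linker histone also called H1x, read 18.8 and 18.5 in BTNL2 wells, 19.1 and 20.2 in B7-2 wells and 22.1 and 19.0 in anti-CD3 wells. H1f7, a linker histone of spermatids, read 15.8 and 14.2 in BTNL2 wells, 12.7 and 12.4 in B7-2 wells and 14.7 and 12.9 in anti-CD3 wells. Both H1f7 arrays of BTNL2 wells lay above both of B7-2 wells, without a call (log2 change 0.26, adjusted p = 0.139). The H2A.L genes are known from mouse testis. H2al1m read 12.6 and 12.5 in BTNL2 wells, 14.3 and 12.0 in B7-2 wells and 10.4 and 13.3 in anti-CD3 wells. H2al2a read 8.81 and 8.66, H2al3 12.7 and 12.2, and H2ap 8.75 and 9.11 in BTNL2 wells. In B7-2 wells the same 3 genes read 8.04 and 7.67, 13.2 and 13.8, and 9.54 and 8.73, and in anti-CD3 wells 10.02 and 8.48, 12.7 and 13.8, and 8.94 and 8.65. All of these lie near the dim end, where array signal cannot show whether a message is present. H2bfm read 16.2 and 17.3 in BTNL2 wells, 19.98 and 17.2 in B7-2 wells and 18.1 and 16.2 in anti-CD3 wells. H2bl1 read 4.87 and 4.77 in BTNL2 wells, 5.29 and 5.15 in B7-2 wells and 4.94 and 6.20 in anti-CD3 wells, just above the medians of the nonspecific controls.

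The clustered H3 and H4 genes are not members by the symbol rule, and they were added after their values had been seen. Of the 9 measured, 6 were called higher and none lower in BTNL2 wells against anti-CD3 wells (median log2 change 0.75), where 14.2% and 16.2% of all genes were. In limma's test 8 of the 9 had an unadjusted p under 0.05, as did 6641 of all 17097 genes. These 8 include H3c15, which fell (-0.34) at intensities of 4.12 to 6.18, near those of the nonspecific controls. In B7-2 wells against anti-CD3 wells 7 were higher and none lower (median 0.58), where 11.2% and 13.3% of all genes were. In BTNL2 wells against B7-2 wells 3 were higher and 1 lower (median 0.15), where 9.52% and 10.8% of all genes were. H3c14 read 735 and 707 in BTNL2 wells, 514 and 503 in B7-2 wells and 328 and 318 in anti-CD3 wells. It was 2.23-fold higher in BTNL2 wells than in anti-CD3 wells (1.16 ± 0.08 SE, adjusted p = 0.000113) and 1.42-fold higher than in B7-2 wells (0.50 ± 0.08, adjusted p = 0.00611), so its order of groups was that of H2bc22. With the mean of all probe sets none of the 3 genes higher in BTNL2 wells than in B7-2 wells was called, as H3c14 gave 0.23 (adjusted p = 0.0946), H3c4 0.29 (0.13) and H3c1 -0.13 (0.541). The rises in BTNL2 wells against anti-CD3 wells were then 0.58 for H3c14 (0.00161) and 0.49 for H3c1 (0.0217), and that of H3c14 in B7-2 wells was 0.35 (0.0189). H4c9 read 392 and 379 in BTNL2 wells, 358 and 358 in B7-2 wells and 209 and 194 in anti-CD3 wells, with a rise of 0.83 ± 0.09 in B7-2 wells (adjusted p = 0.000999) and no call between BTNL2 and B7-2 wells (0.11, adjusted p = 0.47). H4c11, called lower in BTNL2 wells than in B7-2 wells (-0.36, adjusted p = 0.034), was dim at 8.57 to 13.7 (-0.15 with a pseudocount of 16), and its call was lost in 10 of 14 alternatives. Leaving out an array gave 6 genes higher each time in BTNL2 wells and 4 to 7 in B7-2 wells against anti-CD3 wells, and 1 to 2 in BTNL2 wells against B7-2 wells. The probe sets of H3c1 and H3c14 are of a kind that can match several near-identical genes.

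None of the measured genes listed for making and processing histone messages was called lower. Of 23 measured genes of histone mRNA synthesis and 3′ processing, 11 rose and none fell in BTNL2 wells against anti-CD3 wells. Of all genes, 14.2% rose and 16.2% fell there. The list's median log2 change was 0.29, against -0.0046 over all genes. The other 12 measured genes were not called in that comparison, so the list did not rise as a whole. Among these 12 were Npat (0.20, adjusted p = 0.155), Casp8ap2 (0.15, 0.405) and Hinfp (-0.17, 0.194). Lsm10 (-0.06, 0.678), Lsm11 (-0.15, 0.25) and Zfp473 (-0.14, 0.659) were also among them. In B7-2 wells 7 rose and none fell (median 0.16), where 11.2% and 13.3% of all genes did. The most significant in BTNL2 wells were Ncbp1 of the nuclear cap-binding complex (log2 change 0.75, adjusted p = 0.00102), Slbp, the stem-loop binding protein (0.64, 0.00172), and Eri1, an exonuclease that trims the stem-loop end (0.56, 0.00291). In B7-2 wells they were Snrpf, an Sm protein (0.65, 0.003), Ncbp1 (0.58, 0.00449) and Cpsf2, a subunit of the cleavage complex (0.52, 0.00948). BTNL2 wells against B7-2 wells had 2 calls, both upward, Eri1 (0.32, 0.041) and Slbp (0.32, 0.0464). That was 8.7% of the list, against 20.4% of all genes called. Slbp read 2009 and 2127 in BTNL2 wells, 1615 and 1708 in B7-2 wells and 1355 and 1307 in anti-CD3 wells. The 3 groups of this probe set did not overlap and stood in the order of H2bc22. With the mean of all Slbp probe sets, BTNL2 against B7-2 wells gave 0.0546 (adjusted p = 0.696) and BTNL2 against anti-CD3 wells 0.30 (0.0236), and for Eri1 that mean gave 0.19 (0.133) and 0.36 (0.0106). In BTNL2 against B7-2 wells the Slbp call was lost in 10 and the Eri1 call in 9 of 15 alternatives. These include every array left out, where leaving out an anti-CD3 array repeats the fit of only the 4 arrays compared. Leaving out an array gave 6 to 9 genes higher in BTNL2 wells and 3 to 6 in B7-2 wells against anti-CD3 wells.

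The list of replication-coupled histone chaperones holds genes that carry new H3 and H4 to the fork. It also holds other histone-handling genes, among them Nap1l1, Nap1l4 and Cdan1, which were called in no comparison. Of 11 measured, 6 rose and none fell in BTNL2 wells against anti-CD3 wells (median log2 change 0.29), where 14.2% and 16.2% of all genes did. Chaf1b, a subunit of chromatin assembly factor CAF-1, led (0.81, adjusted p = 0.000705). Mcm2, a helicase subunit that binds H3 and H4 (0.76, 0.00136), and Rbbp7 (0.58, 0.00221) followed. In B7-2 wells 5 rose and none fell (median 0.22), where 11.2% and 13.3% of all genes did. Ipo4, an importin for H3 and H4, led (0.66, 0.00255), followed by Chaf1b (0.62, 0.00337) and Rbbp7 (0.52, 0.00495). Leaving out an array gave 4 to 5 genes higher in BTNL2 wells and 3 to 5 in B7-2 wells against anti-CD3 wells. Between BTNL2 and B7-2 wells Asf1b, which hands H3 and H4 to CAF-1, was higher (0.34, 0.0296) and Ipo4 lower (-0.46, 0.0125). Asf1b read 1951 and 1876 in BTNL2 wells, 1515 and 1514 in B7-2 wells and 1418 and 1417 in anti-CD3 wells. Its call against B7-2 wells was lost in 8 of 15 alternatives, among them every array left out, and that of Ipo4 in 2.

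Genes that place replacement histones were called in both directions. In BTNL2 against anti-CD3 wells 40% of the genes of H3.3 deposition and 40% of those of H2A.Z exchange were called, against 30.4% of all genes. In B7-2 against anti-CD3 wells these shares were 40% and 30%, against 24.5%. In BTNL2 against B7-2 wells they were 40% and 20%, against 20.4%. For H3.3 deposition, 5 genes were measured, and Daxx (log2 change 0.65, adjusted p = 0.00168) and Hira (0.71, 0.00278), which both encode chaperones of H3.3, were higher in BTNL2 wells than in anti-CD3 wells. In B7-2 wells Hira was higher (0.76, 0.0033) and Ubn1, a partner of Hira, lower (-0.42, 0.0167), and in BTNL2 wells against B7-2 wells Daxx (0.53, 0.00667) and Ubn1 (0.35, 0.0386) were higher. For the exchange of H2A.Z, 10 genes were measured, and 3 rose in B7-2 wells against anti-CD3 wells while none fell. They were Ruvbl1 (1.00, 0.000836), Ruvbl2 (0.90, 0.000843) and Actl6a (0.67, 0.00462), subunits shared by several remodelling complexes. BTNL2 wells had these 3 higher than anti-CD3 wells too, at 0.87, 0.45 and 0.84 (adjusted p = 0.000762, 0.00844 and 0.00112), with Znhit1 lower (-0.38, 0.0301). The mean of its probe sets put Actl6a at 0.51 (0.008) in that comparison. Between BTNL2 and B7-2 wells Ruvbl2 (-0.45, 0.0135) and Znhit1, a subunit of the SRCAP complex (-0.44, 0.0254), were lower. The Ubn1 calls were lost in 8 of 15 alternatives in BTNL2 against B7-2 wells and in 4 in B7-2 against anti-CD3 wells, where the mean of its probe sets gave -0.14 (adjusted p = 0.261), and those of Ruvbl2 and Znhit1 in BTNL2 against B7-2 wells in 3 and 4. Of 4 measured genes for CENP-A and its deposition only Mis18a was called, higher in BTNL2 wells than in anti-CD3 wells (0.39, 0.0265), and this call was lost without BTNL2 array 1 (adjusted p = 0.0703), BTNL2 array 2 (0.107) or anti-CD3 array 2 (0.151). The 1 measured gene for histone handling during transcription was not called.

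Most of the S-phase genes were higher in both groups with B7-2 than in anti-CD3 wells. Of 21 measured, 18 rose and none fell in BTNL2 wells against anti-CD3 wells (median log2 change 0.54), where 14.2% and 16.2% of all genes did. In B7-2 wells 15 rose and none fell (median 0.43), where 11.2% and 13.3% of all genes did. Rrm2, a subunit of ribonucleotide reductase, read 749 and 746 in BTNL2 wells, 732 and 676 in B7-2 wells and 362 and 355 in anti-CD3 wells, which was 2.08-fold above anti-CD3 wells in BTNL2 wells (adjusted p = 0.000193) and 1.96-fold above them in B7-2 wells (0.000625). Next by p in BTNL2 wells were Tyms, thymidylate synthase (0.94, 0.000552), and Ccne1, cyclin E1 (0.91, 0.000644), and in B7-2 wells Cdc6, a loader of the replicative helicase (0.82, 0.00095), and Ccne2, cyclin E2 (0.72, 0.00166). Between BTNL2 and B7-2 wells only Tyms was called, which is 4.76% of the list against 20.4% of all genes, and the median was 0.06. Tyms rose by 0.40 there (adjusted p = 0.0327), a call lost in 5 of 15 alternatives. The mean of its probe sets gave 0.15 (adjusted p = 0.328). Leaving out an array gave 11 to 16 genes higher in BTNL2 wells and 8 to 13 in B7-2 wells against anti-CD3 wells, and none lower. H2bc22 and H2az1 were higher in the same wells as these genes, and H2bc4 and H2az2 were lower there, with H1f2 called lower in BTNL2 wells. The part of the CD8 and NK markers, of the 18S signal and of amplification in these differences was not tested.

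**Figure D4:**
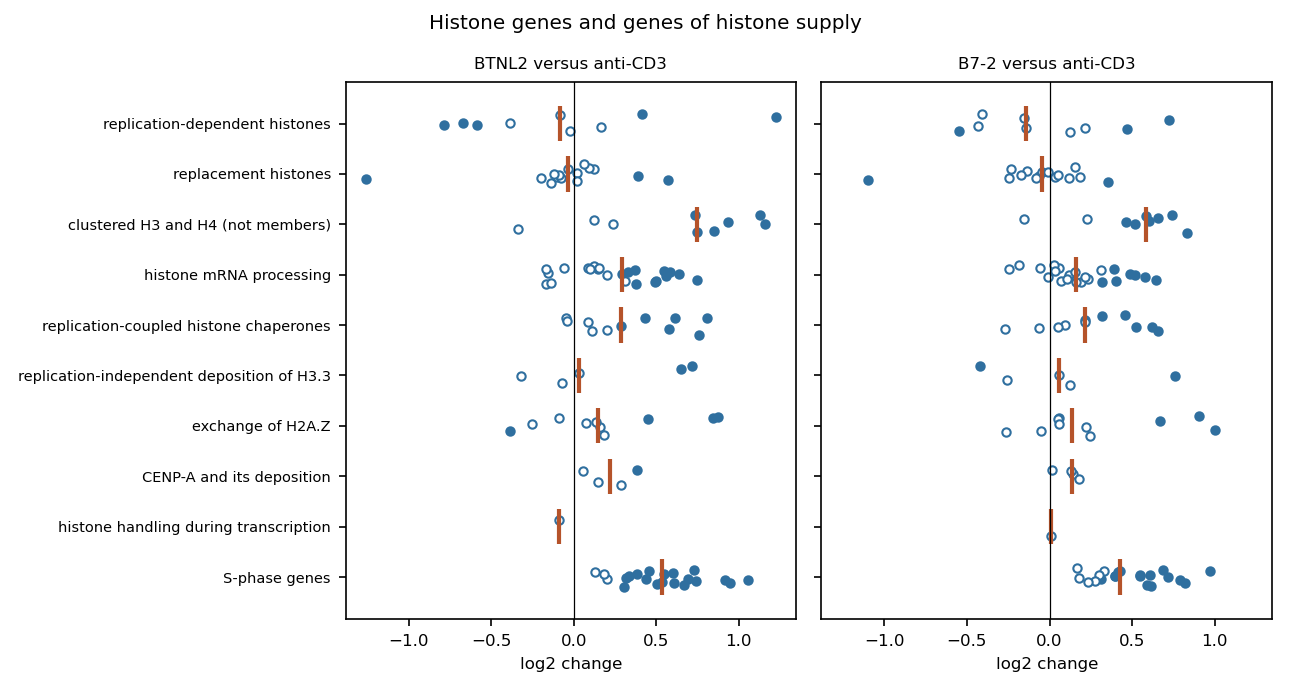
Log2 change (x axis) of each gene in the histone classes and in the lists of histone supply, for BTNL2 wells against anti-CD3 wells on the left and B7-2 wells against anti-CD3 wells on the right. Points are genes, filled where called, and vertical bars are medians. The 21 S-phase genes all lie above 0 in both panels, while the 9 replication-dependent and 15 replacement histone genes lie on both sides of 0.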

How the data were processed

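Messenger RNA of 6 T cell cultures was measured on 1 one-colour array each, after NuGen amplification of 50 ng of total RNA per the labels' protocols. The authors deposited intensities per probe set on the linear scale. The submitters' processing notes name RMA, without a version, and the chip definition is not given in the sources used here. RMA makes arrays alike in distribution, so a change common to most messages would not be seen, and it compresses changes of dim probe sets. The number of arrays limits the precision.

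Of 45141 probe sets, 104 were controls, 28898 had 1 symbol, 551 several and 15588 none here. The symbols of 28689 were updated by Entrez identifier with the GRCm38.p6 gene table. The deposited intensities were log2 transformed and fitted with lmFit and eBayes of limma 3.58.1 under R 4.3.3 (1 fit of 6 arrays, 3 residual and 4.02 prior degrees of freedom, no replicate block), two-sided, and the procedure was tested on simulated data. Folds were computed from log2 changes. Named genes were the called histone genes with the 6 largest rises and falls per comparison, every replacement histone, and the 3 called genes of smallest p in each list. The clustered H3 and H4 genes and the further probe sets were added after seeing the data. The histone genes, lists and markers were chosen with earlier results of these data known. Genes of the lists without a probe set of 1 symbol were not analysed here. Same-numbered arrays of different groups did not deviate together (r = -0.0641 to -0.000967 over genes), so the numbers were not used to pair them. Such a correlation cannot exclude a shared preparation. Alternatives changed the variance prior, arrays in the fit, dim filter, scaling, probe sets per gene, pseudocount, block and arrays left out, and left out probe sets marked as cross-matching. Leaving out an array of the group not compared repeated the fit of only the 4 arrays compared. A count of alternatives that lost a call can therefore hold the same result more than once.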

Additional observations from a re-analysis of the deposited data

How the results depend on the processing

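Of 519 values of single histone genes under alternatives, 461 kept their direction and their side of the threshold, 32 lost a call, 10 gained one and 16 changed sign. The sign changes were small or came from other probe sets of a gene. H1f4 in BTNL2 against B7-2 wells ranged over -0.16 to 0.0452 with an array left out, H3f3a over -0.0021 to 0.25 in that comparison and over -0.2447 to 0.012 in BTNL2 against anti-CD3 wells. H3f3b in B7-2 against anti-CD3 wells gave 0.0116 with median centring, 0.10 with the mean of its probe sets and 0.20 with the second alone. H2aj gave 0.21 in both comparisons with anti-CD3 wells with the mean of its probe sets, 0.44 and 0.43 with the second, and 0.25, 0.0481 and 0.29 with the third. The second H1f4 probe set gave -0.18 and -0.21 and the second H2az2 probe set 0.0343 in BTNL2 against B7-2 wells.

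Of 297 counts and medians by class, 233 stayed near their value. In the same alternatives the class medians could not move either, except where the dim filter removed genes of the class. With the clustered H3 and H4 genes added, an alternative chosen after seeing the data, the replication-dependent genes called higher were 9 in B7-2 against anti-CD3 wells, 4 in BTNL2 against B7-2 wells (2 lower) and 8 in BTNL2 against anti-CD3 wells, and their medians were 0.35, -0.0009 and 0.20. With an intensity trend in the prior, 2 replication-dependent and 2 replacement genes were lower in B7-2 against anti-CD3 wells, and in BTNL2 against B7-2 wells 0 replication-dependent genes were lower and 1 replacement gene higher. With only the 4 arrays compared, those replication-dependent counts were 2 and 0 lower. With the mean of all probe sets, 1 replication-dependent gene was higher in each comparison with anti-CD3 wells, the medians of replacement genes were 0.0311, -0.0050 and 0.0191, and that of replication-dependent genes was -0.0232 in BTNL2 against anti-CD3 wells. With a pseudocount of 16 the replication-dependent median was -0.0582 in B7-2 against anti-CD3 wells and 1 replacement gene was higher in BTNL2 against B7-2 wells. Without dim genes the replacement medians were 0.0087 in BTNL2 against B7-2 wells and -0.0062 in BTNL2 against anti-CD3 wells, and without cross-matching probe sets the replication-dependent median was -0.20 in BTNL2 against anti-CD3 wells. With the replicate block, 2 replication-dependent genes were lower in B7-2 against anti-CD3 wells, since H1f2 passed (-0.41, adjusted p = 0.0482), and no other call of a histone gene in the set changed. The block also ended calls in BTNL2 against B7-2 wells of Slbp, Eri1, Asf1b, Ubn1, H3c4 and H4c11 (adjusted p = 0.0519 to 0.077), and of Macroh2a1 in B7-2 against anti-CD3 wells (0.0821).

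Leaving out each array in turn gave these ranges. In B7-2 against anti-CD3 wells, replication-dependent genes were higher 1 to 2 and lower 0 to 2 with medians of -0.18 to -0.0325, and replacement genes higher 0 to 1 with medians of -0.0458 to -0.0016. In BTNL2 against B7-2 wells, replication-dependent genes were higher 0 to 1 and lower 0 to 1 with medians of -0.16 to -0.0535, and replacement medians were -0.0545 to 0.0573. In BTNL2 against anti-CD3 wells, replication-dependent genes were higher 1 to 2 with medians of -0.17 to 0.0151, and replacement genes higher 1 to 2 with medians of -0.0653 to 0.014. Over all genes, leaving out an array lowered the calls to as few as 2454, 2142 and 3726 in the 3 comparisons, from 4190, 3482 and 5197, with fewer samples in the fit. Of 853 values of called genes outside the symbol rule and in the lists, 104 kept their direction and lost their call. The 1 value that changed sign lost its call too, H3c1 in BTNL2 against B7-2 wells with the mean of all probe sets (-0.13). The causes of the other shifts were not tested. Signal near the nonspecific controls limits the genes under an intensity of 12.4, of which 3 were histone genes.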

Other observations

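Some histone probe sets carry several gene symbols and belong to none of the genes above. The 2 probe sets of the H2A pair H2ac19 and H2ac18 read 224 and 177, and 255 and 199, in BTNL2 wells. In B7-2 wells they read 210.4 and 166, and 182 and 172, and in anti-CD3 wells 203 and 178, and 245 and 277, so all groups of the first probe set overlapped, while the second probe set was lower on both B7-2 arrays than on the other 4. The probe set shared by H3f3a and a pseudogene of it read 5439 and 4846 in BTNL2 wells, 5116 and 5215 in B7-2 wells and 5189 and 5209 in anti-CD3 wells, with overlapping groups. None of these was tested.

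The macroH2A genes, large H2A variants with an extra domain, were also outside the symbol rule. Macroh2a1 read 387 and 405 in BTNL2 wells, 414 and 423 in B7-2 wells and 548 and 493 in anti-CD3 wells, and it was called lower in both BTNL2 wells (log2 change -0.39, adjusted p = 0.0174) and B7-2 wells (-0.31, adjusted p = 0.0495) than in anti-CD3 wells by limma. These calls were lost in 2 and 10 of 15 alternatives. Macroh2a2 read 136 and 116 in BTNL2 wells, 69.9 and 95.1 in B7-2 wells and 102 and 75.9 in anti-CD3 wells, and was not called.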
